A study of Mus musculus with 10 samples.

Results

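The genes described here are 10 of the 16647 genes listed in the liver RNA-seq table. They encode enzymes of sulfur amino acid and taurine metabolism: *Mat1a*, *Gnmt*, *Ahcy* and *Bhmt* of the methionine cycle, *Cbs* and *Cth* of transsulfuration, and *Cdo1*, *Csad*, *Tst* and *Suox*, which turn cysteine sulfur into taurine, thiocyanate and sulfate. The raw count table lists Entrez identifiers, which were mapped to mouse symbols, and all 10 genes were found and tested. They were chosen by name with the comparison of MI-883 and control livers already known. Their fold changes and *P* values in that comparison are therefore given as a description.

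The livers came from a Taconic mouse line, the humanized PXR-CAR-CYP3A4/3A7 mice, in which human *PXR*, *CAR* and *CYP3A4/3A7* genes stand in for the mouse ones. Per the study the sequenced livers were from males. Its methods state that a high-fat diet began at 10 to 15 weeks of age and was fed for 8 weeks before 4 weeks of dosing. In the MI-883 group 5 mice received MI-883, a ligand that activates human CAR and antagonizes human PXR, at 5 mg/kg by oral gavage 3 times per week. In the control group 5 mice received the vehicle of DMSO, PEG300 and corn oil by the same route and schedule, and each library is another animal.

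The liver is the main site of methionine breakdown. Mat1a makes S-adenosylmethionine (SAM), methyltransferases such as Gnmt use its methyl group and leave S-adenosylhomocysteine, and Ahcy splits that product into adenosine and homocysteine. Homocysteine is either methylated back to methionine by Bhmt, with betaine as the donor, or passed through Cbs and Cth to cysteine. Cysteine feeds glutathione, or is oxidized by Cdo1 toward taurine, which mouse liver joins to bile acids, and toward sulfite, which Suox oxidizes to sulfate.

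In short, 9 of the 10 genes had a lower mean in the MI-883 livers and *Csad* had a higher one. Log2 fold changes were below 0 in 49% of all tested genes, and nothing is read from the members' count. None of the 10 passed the threshold of an adjusted *P* of 0.05 in the edgeR fit of all genes. The largest differences were those of *Cdo1* (log2 fold change -0.54 ± 0.138, S.E.), *Cbs* (-0.40 ± 0.108) and *Suox* (-0.37 ± 0.0811). *Suox* was the one member whose 2 groups of livers did not overlap, beside 1.93% of tested genes lower and 2.05% higher. Among the genes around these enzymes, *Mat2a*, which encodes the other SAM-making catalytic subunit, rose (0.35 ± 0.0666, adjusted *P* = 0.0260 by edgeR), as did the SAM-using methyltransferase gene *Tpmt*.

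Library totals lay between 23513665 and 36221514 counts, so that 3 counts correspond to 0.0838 to 0.133 CPM, the TMM-scaled count relative to library size in which levels are given below. The 10 genes with the most counts in a liver held 16.0% to 16.8% of its total in controls and 13.7% to 15.1% in MI-883 livers. The part of this difference in the log2 fold changes was not tested. Of the 13219 genes tested, edgeR called 136 (1.03%), 35 lower (0.265%) and 101 higher (0.764%), and DESeq2 called 172 lower (1.3%) and 291 higher (2.2%). *Cyp2b10*, a CAR target gene, was at 36.5 ± 9.10 CPM (S.D., n = 5) in control and 1019 ± 299 CPM in MI-883 livers, so the treatment labels and this gene go together. Controls 1 and 2 stood apart from the other controls over the 500 most variable genes, with scores of 13.5 and 10.03 on the second principal component against 0.159 to 1.97 for controls 3 to 5, and the values without control 1 or control 2 are given where a call changes. The MI-883 livers parted otherwise on the second component. Replicates 1 and 3 were at 4.05 and 0.712, and replicates 2, 4 and 5 at -11.9 to -8.04. On the first component controls 1 and 2 were at 4.73 and -0.420, and controls 3 to 5 at -16.8 to -10.9. A term parting replicates 1 and 2 from 3 to 5 in both groups follows the control split and not that of the MI-883 livers. With this term *Suox* alone of the members came under the threshold (adjusted *P* = 0.0486 by edgeR). The 10 members had between 1065 counts (*Csad*) and 128967 counts (*Bhmt*) in a liver.

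The sequences before the start sites are printed here for the members and the partner on which the description turns, together with 2 members that hold a motif of interest. RefSeq promoter entries on GRCm38.p6 were at hand for 6 members (*Csad*, *Cbs*, *Bhmt*, *Gnmt*, *Ahcy* and *Suox*) and for the partners *Mat2a* and *Bhmt2*. Each line gives the 250 bases before the start, read 5′ to 3′ on the gene's strand, with the motifs AGGTCA (the nuclear receptor half-site), CACGTG (an E-box), CCAAT and TATAAA in capitals on either strand.
*Bhmt*, chr13:93637759-93638008, minus strand: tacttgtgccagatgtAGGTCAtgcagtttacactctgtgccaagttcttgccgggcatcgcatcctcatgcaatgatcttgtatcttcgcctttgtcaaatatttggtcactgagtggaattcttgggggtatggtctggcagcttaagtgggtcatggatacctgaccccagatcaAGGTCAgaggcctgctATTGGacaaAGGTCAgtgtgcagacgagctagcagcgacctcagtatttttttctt
*Gnmt*, chr17:46729166-46729415, minus strand: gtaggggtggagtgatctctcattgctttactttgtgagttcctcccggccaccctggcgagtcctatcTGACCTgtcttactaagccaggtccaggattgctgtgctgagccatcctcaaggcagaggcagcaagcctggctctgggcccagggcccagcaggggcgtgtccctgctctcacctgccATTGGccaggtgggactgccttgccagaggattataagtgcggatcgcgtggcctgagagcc
*Cbs*, chr17:31637206-31637455, minus strand: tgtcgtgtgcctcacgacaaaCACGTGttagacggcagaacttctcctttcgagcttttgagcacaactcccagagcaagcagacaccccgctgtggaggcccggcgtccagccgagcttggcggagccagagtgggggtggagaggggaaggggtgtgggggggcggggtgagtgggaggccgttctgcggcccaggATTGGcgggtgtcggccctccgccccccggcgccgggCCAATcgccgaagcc
*Suox*, chr10:128673919-128674168, minus strand: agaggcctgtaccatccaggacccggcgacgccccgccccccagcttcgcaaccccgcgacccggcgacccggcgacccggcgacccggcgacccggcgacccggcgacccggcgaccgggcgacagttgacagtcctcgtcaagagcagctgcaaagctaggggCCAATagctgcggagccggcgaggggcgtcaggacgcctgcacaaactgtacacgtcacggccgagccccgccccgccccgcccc
*Mat2a*, chr6:72439557-72439806, minus strand: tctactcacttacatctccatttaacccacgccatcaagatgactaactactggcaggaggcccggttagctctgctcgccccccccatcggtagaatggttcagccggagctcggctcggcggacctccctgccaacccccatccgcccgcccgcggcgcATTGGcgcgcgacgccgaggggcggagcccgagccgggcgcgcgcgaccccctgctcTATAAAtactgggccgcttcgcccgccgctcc

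*Bhmt* held AGGTCA 3 times, at -234, -72 and -47 from the start, with a reversed CCAAT at -56 between the nearer pair. *Gnmt* and *Ahcy* each held it once on the reverse strand, at -181 and -205. In all, 3 of the 6 members had AGGTCA within the window from 250 bases before to 50 after the start, as did 16.3% of the 32851 promoters in the reference. CCAAT was present in 6 of 6 members, for *Csad* in 1 of its 2 windows, and in 37.4% of all promoters. CACGTG was present in *Cbs* alone and in 7.15% of all promoters. TATAAA was in none of the 6 members, in *Mat2a* at -32, and in 13.6% of all promoters. The *Bhmt2* window held none of these motifs.

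None of the 6 members held AGTTCA (14.0% of all promoters), the direct repeat of AGGTCA with 4 bases between the copies (0.0152%), TGACNNNGC (12.4%), TTGCNNAA (10.8%) or CAAAGTCCA (0.475%) in this window on either strand. The direct repeat contains AGGTCA itself, and CACGTG reads the same on both strands. The GC content of the 250 bases was 74.4% for *Suox*, 74% for *Bhmt2*, 68% for *Cbs* and 67.6% for *Mat2a*. It was 60.4% for *Gnmt*, 52.8% for *Ahcy*, 48% for *Bhmt*, and 55.6% and 44.8% for the *Csad* windows. The median over all windows was 52.4%. The members that share AGGTCA (*Bhmt*, *Gnmt*, *Ahcy*) had log2 fold changes of -0.28, -0.34 and -0.16, and those without it in their windows (*Cbs*, *Suox*, *Csad*) had -0.40, -0.37 and 0.17.

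The enzymes differed widely in transcript level. Per kilobase of exon, *Gnmt* was highest in control livers, with 1498 ± 389 CPM per kilobase (S.D., n = 5), and *Bhmt* followed with 1310 ± 263. *Mat1a* was at 954 ± 240 and *Ahcy* at 707 ± 133 CPM per kilobase. The ranges of these 4 methionine cycle genes overlapped from each gene to the next in the order.

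A gap separated them from the cysteine genes. *Tst* was at 266 ± 32.0 and *Cdo1* at 265 ± 45.2 CPM per kilobase in control livers, which did not differ beyond their spread. *Cth* was at 174 ± 35.0, with a highest liver inside the *Cdo1* range. *Suox* (61.1 ± 4.03) and *Cbs* (53.2 ± 8.49) overlapped in range, and *Csad* was lowest at 28.3 ± 12.5 CPM per kilobase, its highest liver at 47.1 lying above the lowest *Cbs* liver at 43.9.

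In the MI-883 livers the 4 methionine cycle genes kept the same order of means, from *Gnmt* at 1184 ± 228 to *Ahcy* at 635 ± 134 CPM per kilobase. *Cdo1* stood at 183 ± 32.4 CPM per kilobase there, below *Tst* at 235 ± 35.8. *Csad* was again lowest, at 31.8 ± 14.3. Exon lengths were those of GENCODE M21 (from 1035 bases for *Gnmt* to 6265 for *Cbs*), and the longest, of *Cbs*, sets its level per kilobase low. *Csad* overlaps *Zfp740*, *Gnmt* overlaps *Gm26904*, *Ahcy* overlaps *Gm45609* and *Bhmt* overlaps *Gm15622* on the other strand. *Cth* overlaps *Gm43314* on the same strand. Of these overlapping genes only *Zfp740* is listed among the counted genes. Strand use in counting was not given in the sources used here, so reads of such pairs may not have been told apart.

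**Figure D1:**
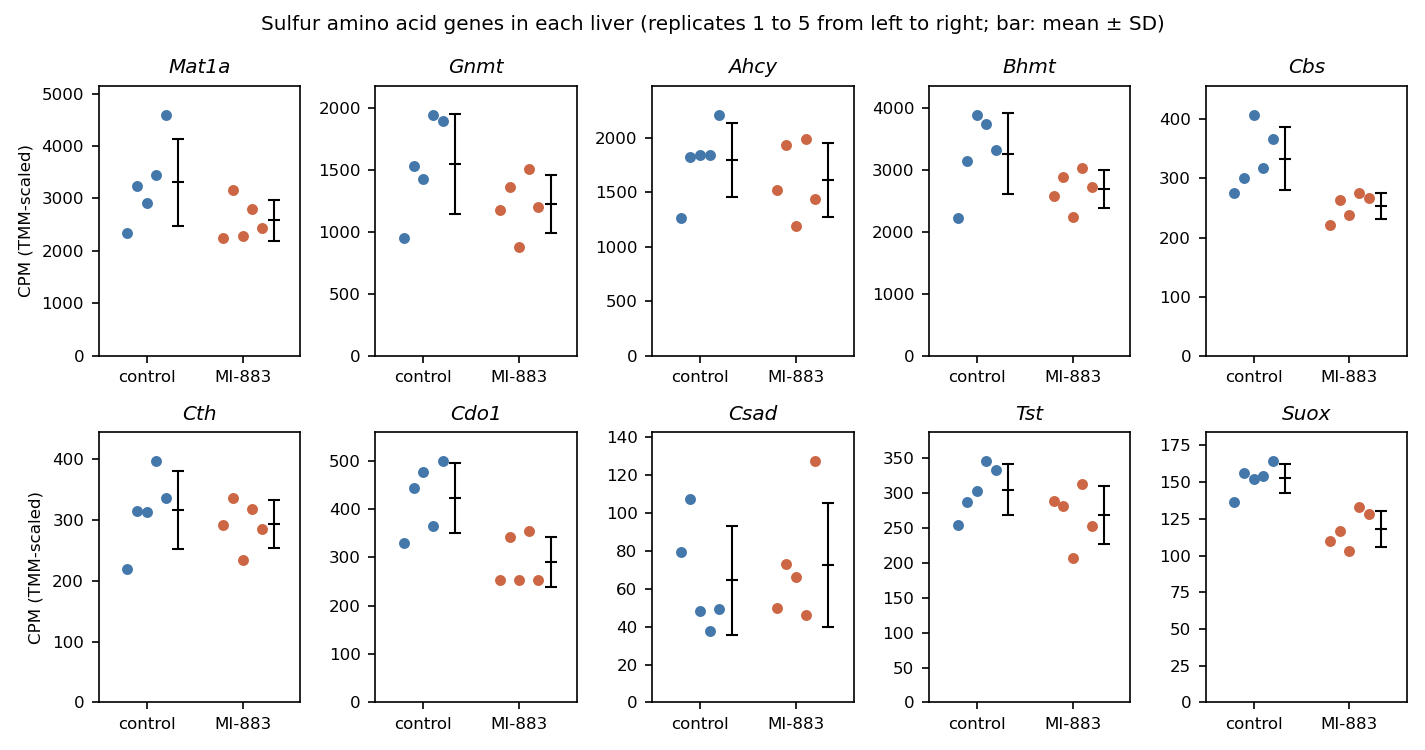
TMM-scaled CPM (vertical axes from 0) of the 10 genes in each liver, control in blue and MI-883 in red, replicates 1 to 5 from left to right, with bars for the mean ± S.D. (n = 5 livers). The *Suox* livers do not overlap between groups, while *Csad* spreads widely in both.

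*Mat1a* (Entrez 11720, chr14:41105012-41124428, plus strand) encodes the liver form of methionine adenosyltransferase, which makes SAM from methionine and ATP. The 5 control livers had 2342, 3245, 2913, 3456 and 4593 CPM, and the 5 MI-883 livers had 2252, 3160, 2279, 2807 and 2429 CPM. Control 5 was far above the other livers and control 1 lay among the low MI-883 livers, so the groups overlapped. The mean was 3310 ± 831 CPM in controls and 2585 ± 390 CPM in MI-883 livers (log2 fold change -0.36, 95% interval -0.71 to -0.0043, adjusted *P* = 0.317 by edgeR).

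*Gnmt* (Entrez 14711, chr17:46725664-46729211, minus strand) encodes glycine N-methyltransferase, which consumes SAM in the liver when methionine is plentiful. Control livers had 951, 1532, 1429, 1945 and 1896 CPM, and MI-883 livers had 1182, 1360, 875, 1508 and 1204 CPM. Control 1 was below all MI-883 livers but replicate 3, and the groups overlapped. The log2 fold change was -0.34 ± 0.186 (S.E.), with an adjusted *P* of 0.400 by edgeR.

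The *Gnmt* to *Mat1a* ratio per kilobase was 1.57 ± 0.215 in control and 1.59 ± 0.219 in MI-883 livers, a difference far inside the spread between livers. It ran from 1.36 to 1.89 in control and from 1.29 to 1.80 in MI-883 livers.

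*Ahcy* (Entrez 269378, chr2:155059310-155074497, minus strand) encodes S-adenosylhomocysteine hydrolase, which clears the product that inhibits methyltransferases. Control livers ran from 1269 CPM in control 1 to 2212 CPM in control 5, with 1830, 1843 and 1841 CPM in the others, and MI-883 livers had 1521, 1934, 1188, 1990 and 1438 CPM. MI-883 2 and MI-883 4 were above 4 of the 5 controls, and the log2 fold change was -0.16 ± 0.162 (adjusted *P* = 0.673 by edgeR). Of the 100-base stretches of its transcripts, 70.2% also occur in the look-alike genes *Gm4737* and *Gm9826*, so its counts depend on how reads with several matches were treated, which was not given in the sources used here. Neither look-alike is listed among the counted genes.

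*Bhmt* (Entrez 12116, chr13:93616891-93637758, minus strand) encodes betaine-homocysteine methyltransferase, which remakes methionine from homocysteine. Control livers had 2224, 3143, 3886, 3735 and 3322 CPM, and MI-883 livers had 2578, 2893, 2232, 3029 and 2731 CPM. All 5 MI-883 livers were below each control but control 1, which was the lowest liver of all, and the S.D. was 654 CPM in control against 308 CPM in MI-883 livers. The log2 fold change was -0.28 ± 0.143 (adjusted *P* = 0.370 by edgeR), and 41.9% of its 100-base stretches are shared with *Gm5096*, *Bhmt-ps1* or *Gm15622*. None of these look-alikes is listed among the counted genes.

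*Cbs* (Entrez 12411, chr17:31612623-31637233, minus strand) encodes cystathionine beta-synthase, which commits homocysteine to cysteine synthesis. Control livers had 275, 301, 407, 317 and 367 CPM, and MI-883 livers had 222, 263, 238, 276 and 267 CPM. The groups met at a single point: MI-883 4 at 276.0 CPM was just above control 1 at 275.1 CPM. The mean was 333 ± 53.2 CPM in controls and 253 ± 22.6 CPM in MI-883 livers (log2 fold change -0.40, 95% interval -0.63 to -0.16), with an adjusted *P* of 0.111 by edgeR and 0.0188 by DESeq2.

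*Cth* (Entrez 107869, chr3:157894248-157925081, minus strand) encodes cystathionine gamma-lyase, which releases cysteine in the next step. Control livers had 220, 315, 314, 396 and 337 CPM, and MI-883 livers had 291, 336, 234, 318 and 286 CPM. The groups overlapped over most of their range, with a log2 fold change of -0.11 ± 0.139 (95% interval -0.41 to 0.19, adjusted *P* = 0.734 by edgeR). Whether the *Cbs* difference exceeds that of *Cth*, its partner in transsulfuration, was not tested.

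*Cdo1* (Entrez 12583, chr18:46713193-46728502, minus strand) encodes cysteine dioxygenase, which oxidizes cysteine to cysteine sulfinate and controls its level in the liver. Control livers had 330, 444, 476, 366 and 498 CPM, and MI-883 livers had 254, 342, 253, 354 and 254 CPM. Replicates 1, 3 and 5 of the treated livers lay close together below every control, and replicates 2 and 4 lay inside the control range. The mean was 423 ± 72.2 CPM in controls and 291 ± 51.7 CPM in MI-883 livers, the widest relative difference of the 10 (-31.1%), with an adjusted *P* of 0.0914 by edgeR and 0.00914 by DESeq2.

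*Csad* (Entrez 246277, chr15:102176997-102205052, minus strand) encodes cysteine sulfinic acid decarboxylase, which takes the Cdo1 product on to hypotaurine. Control livers had 79.3, 107, 48.4, 37.6 and 49.6 CPM, and MI-883 livers had 49.9, 73.1, 66.1, 46.3 and 127 CPM. It varied most of the members, with a coefficient of variation of 44.3% in control and 44.9% in MI-883 livers, and control 2 and MI-883 5 stood above the rest of their groups. The log2 fold change of 0.17 ± 0.307 (adjusted *P* = 0.820 by edgeR) became -0.13 without MI-883 5.

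The *Csad* to *Cdo1* ratio per kilobase was 0.110 ± 0.0535 in control and 0.183 ± 0.0997 in MI-883 livers. It ran from 0.0696 to 0.169 in controls and from 0.0917 to 0.351 in MI-883 livers, so the groups overlapped. Controls 1 and 2, at 0.168 and 0.169, stood apart from controls 3 to 5 at 0.0696 to 0.0720, which were below every MI-883 liver. The highest value was that of MI-883 5, in which *Csad* was high and *Cdo1* low.

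*Tst* (Entrez 22117, chr15:78399556-78405865, minus strand) encodes thiosulfate sulfurtransferase, or rhodanese, a mitochondrial enzyme that moves sulfur from thiosulfate to cyanide and other acceptors. Control livers had 254, 287, 303, 345 and 333 CPM, and MI-883 livers had 289, 281, 206, 313 and 252 CPM. MI-883 3 was clearly below the controls, MI-883 5 was just under control 1, and the log2 fold change was -0.18 ± 0.116 (adjusted *P* = 0.470 by edgeR).

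*Suox* (Entrez 211389, chr10:128669887-128673918, minus strand) encodes sulfite oxidase, the molybdenum enzyme that turns sulfite into sulfate in mitochondria. Control livers had 136, 156, 152, 154 and 164 CPM, and MI-883 livers had 110, 117, 103, 133 and 128 CPM. Every MI-883 liver was below every control, the nearest pair being MI-883 4 at 132.9 CPM and control 1 at 136.5 CPM. It also had the smallest control spread of the 10, with a coefficient of variation of 6.60%.

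The *Suox* mean was 153 ± 10.1 CPM in controls and 118 ± 12.3 CPM in MI-883 livers (log2 fold change -0.37, 95% interval -0.54 to -0.19). Its adjusted *P* was 0.0516 by edgeR, just over the threshold, and 0.00181 by DESeq2. Under other settings of edgeR the adjusted *P* of *Suox* ran from 0.0332 to 0.132, so its call rests on the setting.

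Counted over the members, edgeR called 0 of 10 lower and 0 higher, beside 0.265% and 0.764% of all tested genes. At an unadjusted *P* under 0.05 the count was 4 lower (*Cdo1*, *Cbs*, *Mat1a* and *Suox*), beside 7.49% of all tested genes, and 0 higher, beside 8.09%. DESeq2 called 3 lower (*Cdo1*, *Cbs* and *Suox*), beside 1.3% of all tested genes. A log2 fold change below 0 was seen in 9 of 10 members and in 49% of tested genes, and one above 0 in 1 member and in 51%. Groups that did not overlap were seen in 1 of 10 members, lower, beside 1.93% of tested genes lower and 2.05% higher. The median log2 fold change was -0.31 over the members and 0.0045 over all tested genes. The members were chosen with this contrast known, so nothing is read from these counts.

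**Figure D2:**
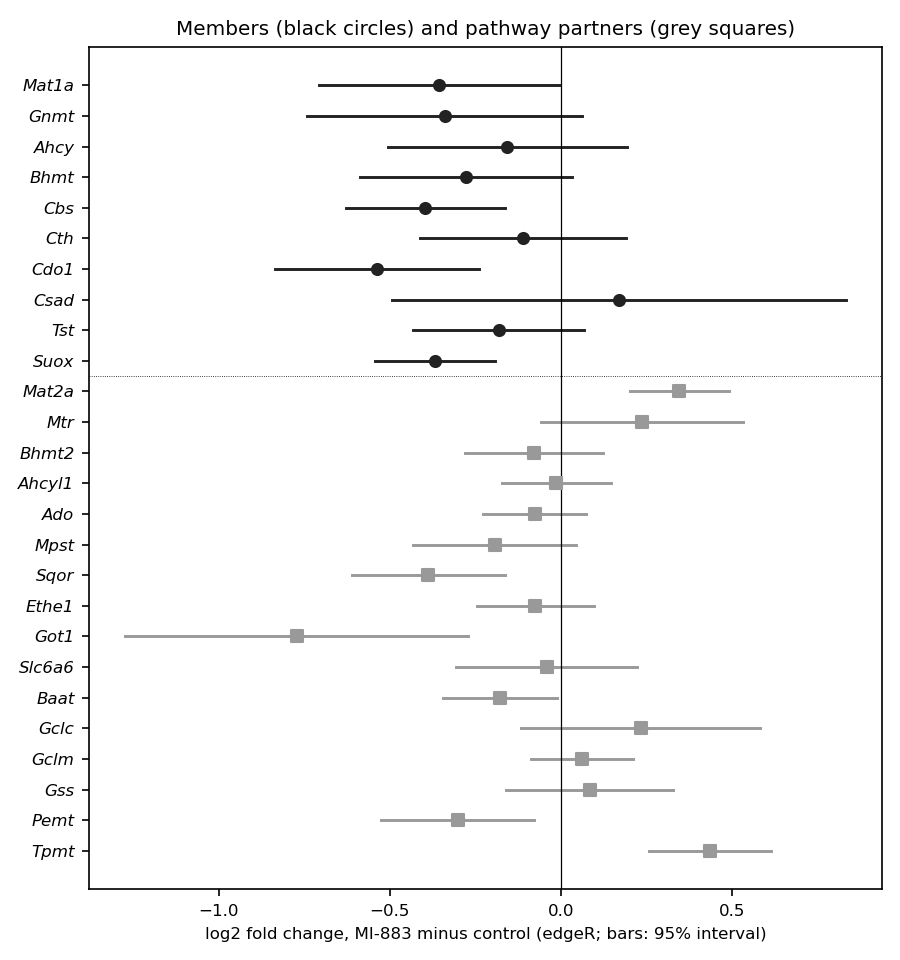
Log2 fold change (MI-883 minus control, horizontal axis, edgeR) with its 95% interval for the 10 members (black circles) and 16 pathway partners (grey squares). The intervals of *Cdo1*, *Cbs*, *Suox* and, barely, *Mat1a* lie below 0, as do those of the partners *Sqor*, *Pemt*, *Got1* and *Baat*, and those of *Mat2a* and *Tpmt* lie above it.

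The same livers recurred at the low ends of the members' ranges. Control 1 was the lowest control in 9 of the 10 members, all but *Csad*, and MI-883 3 was the lowest treated liver in 7 members (*Cdo1*, *Cth*, *Bhmt*, *Gnmt*, *Ahcy*, *Tst* and *Suox*). Over all tested genes control 1 was the lowest control in 20.2% and MI-883 3 the lowest treated liver in 22.1%. MI-883 4 was the highest treated liver in 7 members and control 5 the highest control in 4. For the highest liver the share over all tested genes was not computed, so nothing is read from these counts.

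These livers also had the highest scaling factors of their groups, 1.05 for control 1 and 1.10 for MI-883 3, and scaling by total counts left control 1 lowest in 9 members and MI-883 3 lowest in 5. Leaving out control 1 brought *Cdo1* to an adjusted *P* of 0.0407, *Cbs* to 0.0499 and *Suox* to 0.0332, all called. Over all 13097 genes tested in that fit, 60 were called lower and 148 higher, beside 35 and 101 with all livers. Leaving out MI-883 4 brought *Suox* alone of the members under the threshold, at 0.0366, with 41 genes called lower and 87 higher over all tested genes. Without any other single liver no member was called.

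**Figure D3:**
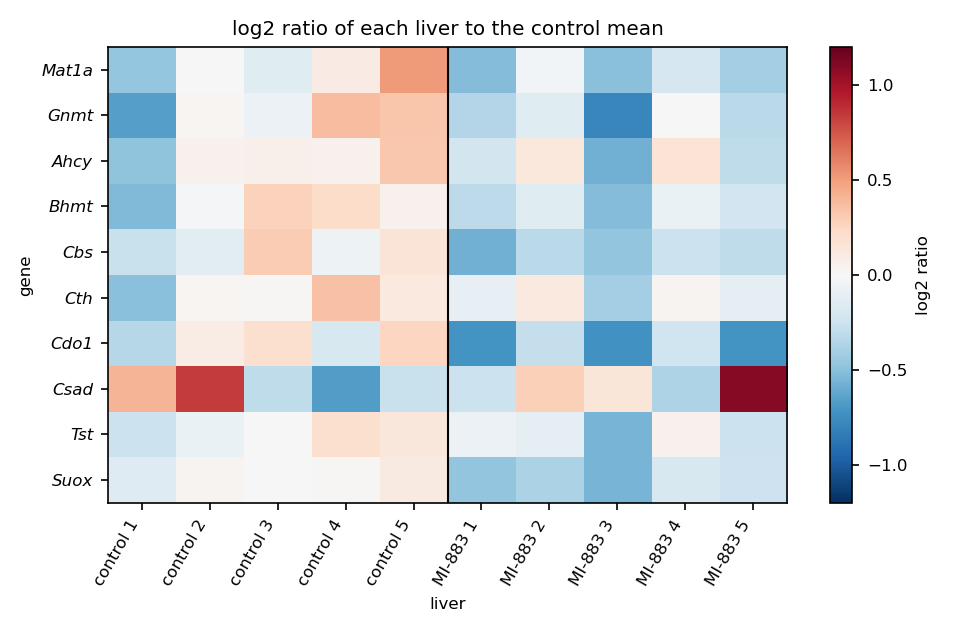
Log2 ratio of each liver (columns, 5 control left of the line and 5 MI-883 right of it) to the control mean for the 10 genes (rows), from blue for lower to red for higher. Control 1 is below the control mean in all rows but *Csad*, and MI-883 5 stands out in the *Csad* row at 1.09.

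Whole liver was sequenced, so fewer cells of a type and less RNA per cell cannot be told apart. Of the 13219 tested genes, 2059 had an unadjusted *P* under 0.05 in either direction (7.49% lower and 8.09% higher). Log2 fold changes were below 0 in 49% of tested genes and above 0 in 51%. The marker counts below stand beside these shares. The hepatocyte markers, at 93815 to 107076 CPM summed over 10 genes in control livers, were at 80715 to 95528 CPM in MI-883 livers, with 8 of 10 log2 fold changes below 0, 0 called by edgeR or DESeq2 and 4 at an unadjusted *P* under 0.05. The defining markers, *Alb* among them, were thus abundant in every liver, and their summed range in MI-883 livers lay lower with a small overlap. Its part in the members' values was not tested.

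Markers of other cells were low beside these. Summed levels in control and MI-883 livers were 249.4 to 371.7 and 204 to 454 CPM for 8 Kupffer cell markers, and 127 to 176 and 148 to 189 CPM for 6 sinusoidal endothelial markers. For 7 stellate cell markers they were 270 to 427 and 312 to 511 CPM, for 6 bile duct markers 25.1 to 118 and 35.1 to 191 CPM, and for 6 lymphocyte markers 9.21 to 16.6 and 11.8 to 18.2 CPM. No gene of these lists was called by edgeR or DESeq2, with 7 at an unadjusted *P* under 0.05, and all ranges of the sums overlapped. Log2 fold changes were above 0 in 7 of 7 stellate cell markers (median 0.23), 5 of 6 bile duct markers (0.54), 5 of 6 endothelial markers (0.18), 6 of 8 Kupffer cell markers (0.024) and 3 of 6 lymphocyte markers (-0.087). For the hepatocyte markers the median was -0.14. The part of these cells in the members' values was not tested.

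Some enzymes of this pathway are zoned along the liver lobule, so markers of both zones were read too. Of 7 periportal markers 6 had a log2 fold change below 0, beside 49% of tested genes. In either direction 4 had an unadjusted *P* under 0.05, beside 7.49% lower and 8.09% higher of tested genes. Their median log2 fold change was -0.31, which equals the members' median to this precision. In this list *Hal*, which encodes histidine ammonia-lyase, is named after its values were seen. It fell from 201 ± 22.0 to 146 ± 12.8 CPM (log2 fold change -0.46 ± 0.0894, adjusted *P* = 0.0264 by edgeR). The sum of the periportal markers was 4941 to 7984 CPM in controls and 5667 to 6427 CPM in MI-883 livers. Of 7 pericentral markers edgeR called 0 (2 at an unadjusted *P* under 0.05, and DESeq2 1 higher, *Glul*, named after its values were seen), and the sums were 10103 to 15099 and 10273 to 15523 CPM, with a median log2 fold change of 0.27. The *Hal* call was kept without control 1, MI-883 1 or MI-883 4 and lost without each of the other livers (adjusted *P* 0.0564 to 0.0796). The part of zonation in the members' values was not tested.

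Beside the members, 99 genes of related pathways were read from the same fit, of which 94 were tested. edgeR called 0 lower and 2 higher, *Mat2a* and *Tpmt*, beside 0.265% and 0.764% of all tested genes. DESeq2 called 2 lower and 5 higher, beside 1.3% and 2.2%. In either direction 24 of the 94 had an unadjusted *P* under 0.05, beside 7.49% lower and 8.09% higher of all tested genes. The same shares stand beside such counts for each list below. Their median log2 fold change was -0.053, with 56 below 0 and 38 above, beside 0.0045 over all tested genes.

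*Mat2a* (chr6:72432796-72439556, minus strand) encodes the methionine adenosyltransferase subunit of most other tissues, which liver carries at a low level. Control livers had 111, 108, 109, 112 and 112 CPM, and MI-883 livers had 139, 149, 152, 123 and 139 CPM. The controls lay within a few CPM of one another and every MI-883 liver was above them, MI-883 4 being the nearest. The mean rose from 111 ± 1.92 to 141 ± 11.4 CPM (log2 fold change 0.35, 95% interval 0.20 to 0.49, adjusted *P* = 0.0260 by edgeR and 4.9e-05 by DESeq2).

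The direction of *Mat2a* held in all 10 fits that left out a liver (log2 fold change 0.32 to 0.39). The call held without control 1, MI-883 1 or MI-883 4 and was lost without each of the other livers, at an adjusted *P* of 0.0596 to 0.0730. Of its 100-base stretches 3.27% are shared with *Particl* or *Gm9523*, of which *Particl* overlaps it on the other strand.

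*Mat1a* stayed the more abundant transcript by far in every liver. The *Mat2a* to *Mat1a* ratio per kilobase was 0.0485, 0.0341, 0.0383, 0.0332 and 0.0251 in control livers and 0.0631, 0.0483, 0.0684, 0.0449 and 0.0587 in MI-883 livers. The means were 0.0358 ± 0.00855 and 0.0567 ± 0.00992, and the groups overlapped because control 1, with the lowest *Mat1a* of its group, had a ratio above those of MI-883 2 and MI-883 4. Since *Mat1a* entered the ratio and is a member, no test is given.

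**Figure D4:**
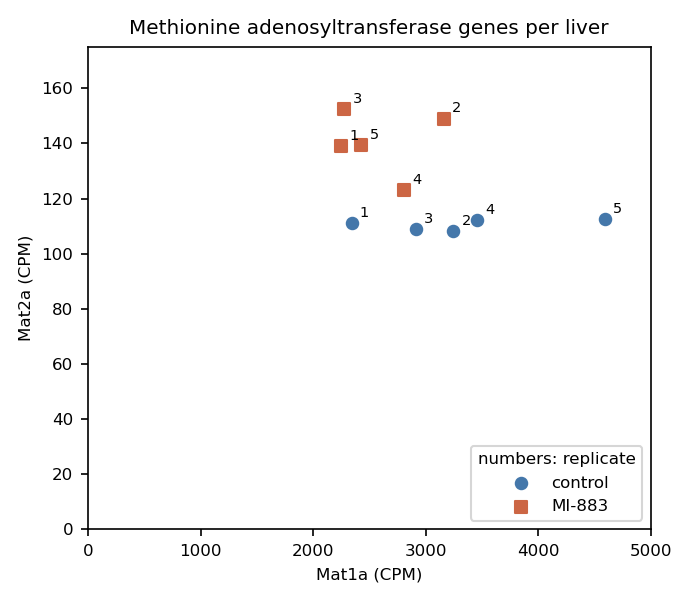
*Mat2a* (vertical axis) against *Mat1a* (horizontal axis), both in TMM-scaled CPM from 0, one point per liver with its replicate number, control as blue circles and MI-883 as red squares. All MI-883 livers lie above all controls on the *Mat2a* axis, while on the *Mat1a* axis the groups overlap.

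The other homocysteine remethylation genes gave smaller differences. *Mtr*, methionine synthase, was at 4.40 ± 0.695 CPM in controls and 5.17 ± 0.608 CPM in MI-883 livers (0.24 ± 0.136, adjusted *P* = 0.421 by edgeR). *Bhmt2*, a neighbour of *Bhmt* that methylates homocysteine from S-methylmethionine, was at 242 ± 24.5 and 230 ± 25.6 CPM (adjusted *P* = 0.721). The *Bhmt* to *Bhmt2* ratio per kilobase was 13.3 ± 2.49 and 11.6 ± 0.850, inside the control spread. *Ahcyl1*, a relative of *Ahcy*, had a log2 fold change of -0.013 ± 0.0738.

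*Bhmt* and *Bhmt2* lie side by side on chromosome 13, with *Dmgdh* next to them on the other strand. *Dmgdh* encodes the dehydrogenase that takes the dimethylglycine made by Bhmt a step further, and is named here after its values were seen. Its log2 fold change was -0.21 ± 0.123 (adjusted *P* = 0.428 by edgeR), between -0.28 for *Bhmt* and -0.078 for *Bhmt2*. *Chdh*, which makes the betaine that Bhmt uses, had 0.14 ± 0.130. Of the 5 choline and betaine oxidation genes edgeR and DESeq2 called 0, with 1 at an unadjusted *P* under 0.05, and the median was -0.12.

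Among 9 tested SAM-dependent methyltransferases edgeR and DESeq2 each called 1 gene, *Tpmt*, which encodes the thiopurine methyltransferase. Control livers had 60.8, 57.0, 60.2, 72.0 and 52.6 CPM, and MI-883 livers had 79.2, 88.9, 80.0, 76.5 and 85.2 CPM, with no overlap. It rose by 0.44 ± 0.0832 on the log2 scale (adjusted *P* = 0.0259 by edgeR). The call was lost without control 2, 3 or 5 or MI-883 2 or 5 (adjusted *P* 0.0644 to 0.0761), and 15.7% of its 100-base stretches are shared with *Gm18807*.

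*Pemt*, which spends SAM on phosphatidylcholine synthesis, was at 391 ± 46.7 CPM in controls and 317 ± 38.8 CPM in MI-883 livers (-0.30 ± 0.104, adjusted *P* = 0.187 by edgeR). *Nnmt*, which methylates nicotinamide, varied widely at 111 ± 56.0 and 78.0 ± 39.0 CPM (adjusted *P* = 0.562). The median over the 9 genes was -0.069. Of 10 polyamine and methionine salvage genes, which use SAM in another way, edgeR and DESeq2 called 0, with 2 at an unadjusted *P* under 0.05.

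Partners of the cysteine branch were read next. *Sqor*, the mitochondrial sulfide oxidase gene, had no overlap between groups, from 198 to 254 CPM in controls and from 145 to 188 CPM in MI-883 livers (-0.39 ± 0.104, adjusted *P* = 0.105 by edgeR and 0.0201 by DESeq2). *Ethe1*, which acts after it, had -0.074 ± 0.0791. *Got1*, an aspartate aminotransferase that also converts cysteine sulfinate, was at 254 ± 92.2 and 149 ± 29.7 CPM (-0.77 ± 0.232, adjusted *P* = 0.148 by edgeR), and was called at 0.0164 without control 1, whose 123 CPM lay among the MI-883 livers.

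*Mpst*, mercaptopyruvate sulfurtransferase, is the neighbour and relative of *Tst*, lying head to head with it on chromosome 15. It was at 142 ± 15.04 CPM in controls and 124 ± 19.3 CPM in MI-883 livers, with a log2 fold change of -0.19 ± 0.111 beside -0.18 ± 0.116 for *Tst*. The *Tst* to *Mpst* ratio per kilobase was 3.46 ± 0.199 and 3.50 ± 0.292. The groups overlapped in this ratio.

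*Ado*, which oxidizes cysteamine to hypotaurine, was at 21.3 ± 1.69 and 20.3 ± 0.826 CPM (adjusted *P* = 0.625 by edgeR). Over the 13 tested partners of cysteine breakdown, taurine and sulfide, edgeR called 0, DESeq2 1 lower (*Sqor*) and 1 higher (*Selenbp2*, named after its values were seen), and 4 had an unadjusted *P* under 0.05.

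On the side of taurine use, *Baat*, which joins bile acids to taurine, was at 288 ± 19.0 CPM in controls and 255 ± 20.8 CPM in MI-883 livers (-0.18 ± 0.0770, adjusted *P* = 0.285 by edgeR). *Slc6a6*, the taurine transporter gene, was at 61.0 ± 10.01 and 59.3 ± 9.16 CPM. Of these 5 genes edgeR called 0, with 2 at an unadjusted *P* under 0.05, and DESeq2 called 1 higher, *Slc6a13*, named after its values were seen.

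Glutathione is the other main use of cysteine. *Gclc*, the catalytic subunit of its first enzyme, was at 224 ± 39.2 CPM in controls and 264 ± 67.0 CPM in MI-883 livers (0.23 ± 0.162, adjusted *P* = 0.511 by edgeR). *Gclm*, the partner subunit, had 0.063 ± 0.0690 and *Gss*, glutathione synthetase, 0.085 ± 0.113. Of 12 genes edgeR called 0, with 4 at an unadjusted *P* under 0.05, and DESeq2 called 1 higher, *Ggt1*, which is named after its values were seen and had at most 3 counts in any control.

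*Papss2*, which activates the sulfate that Suox makes, was at 317 ± 50.4 and 340 ± 43.3 CPM (adjusted *P* = 0.703 by edgeR). All 6 tested sulfate activation and transport genes had log2 fold changes above 0, from 0.10 to 0.25, and edgeR and DESeq2 called 0 of them, with 1 at an unadjusted *P* under 0.05. *Gphn*, needed for the molybdenum cofactor that Suox carries, had -0.012 ± 0.0774. Of 10 cofactor and molybdoenzyme genes edgeR and DESeq2 called 0, with 1 at an unadjusted *P* under 0.05, beside the -0.37 of *Suox* itself. Of 15 folate one-carbon genes, which supply methyl groups to *Mtr*, edgeR and DESeq2 called 0, with 4 at an unadjusted *P* under 0.05 and a median of -0.12.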

How the data were processed

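Libraries from 10 livers (5 control, 5 MI-883) were made from total RNA with a directional kit. Per the study's methods the authors aligned reads to mm10 with STAR and counted them per gene with featureCounts, and the submitters' notes name fastp 0.23.0. The deposited unit is raw counts per Entrez gene, and the handling of strand and of reads with several matches is not given in the sources used here. Of 16647 genes, 16644 matched a RefSeq symbol.

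The members and lists were chosen with earlier results of these data known. The 13219 genes whose 10 libraries together held 60 counts or more were fitted in edgeR 4.0.16 (R 4.3.3; TMM scaling, quasi-likelihood F-test, group as the only term), with Benjamini-Hochberg adjustment over all of them and a threshold of 0.05. The study used DESeq2 with a minimum of 60 counts in all samples, and each setting was run as a separate alternative. DESeq2 1.42.0 was run on the same 13219 genes, and the minimum of 60 counts in every liver was run in edgeR. The study's combination of both was not fitted. Values per liver are TMM-scaled CPM. Every member is named, with a set of pathway partners and each gene of the related lists with an adjusted P under 0.05, and a gene outside these is said to be named after its values were seen. Fits were tested on simulated data. A planned comparison of protein sequences was not run, since no protein table was used here. P values weigh the difference between groups against the spread between animals.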

Additional observations from a re-analysis of the deposited data

Results flagged for a closer look

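Of 74 groups of 5 livers tested for a lone extreme liver, 1 was flagged, while chance alone would flag about 3.7, and 0 of the 20 groups of member values were flagged. The flagged value was that of *Selenbp2*, a selenium-binding protein gene whose close relative *Selenbp1* oxidizes methanethiol, a sulfur gas made from methionine. Control 3 had 310.3 CPM, far above the next control at 91.2 CPM and close to the lowest MI-883 liver at 322 CPM. The means were 122 ± 105 CPM in controls and 439 ± 138 CPM in MI-883 livers, with no overlap (log2 fold change 1.84 ± 0.412, S.E., adjusted *P* = 0.0561 by edgeR and 0.00993 by DESeq2). Without control 3 the log2 fold change was 2.54 and the adjusted *P* 0.000129 by edgeR, and without each other liver the adjusted *P* ran from 0.0612 to 0.134. With all livers, edgeR also called it with total count scaling (adjusted *P* = 0.0451), with no count minimum (0.0391) and with a term parting replicates 1 and 2 from 3 to 5 (0.0338). Of its 100-base stretches 18.4% are shared with *Selenbp1*. *Selenbp2* is named here after its values were seen.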

How the results depend on the processing

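The 10 members kept their direction and their side of the threshold in 168 of 180 values under other settings, crossed to an adjusted *P* under 0.05 in 11, and turned in 1, *Csad* at -0.13 without MI-883 5 (-0.13 to 0.44 over the fits that left out a liver). The number of members called lower was 0 with edgeR, 3 with DESeq2, and 1 (*Suox*) with total count scaling, with 60 counts required in every liver, with filterByExpr, and with a term parting replicates 1 and 2 from 3 to 5. Leaving out a liver gave 0 to 3, and the number called higher stayed at 0 to 0. Over all tested genes, 35 lower and 101 higher became 172 and 291 with DESeq2, and 9 to 60 and 52 to 148 on leaving out a liver. Related pathway genes called lower went from 0 to 2 with DESeq2 and 0 to 1 on leaving out a liver, and those called higher from 2 to 5 with DESeq2 and 0 to 2 on leaving out a liver. Log2 fold changes near 0 turned sign for *Ahcyl1* (0.0046 with 60 counts in every liver, 0.033 with total counts, -0.045 to 0.022 without a liver), *Gphn* (0.0051, 0.033 and -0.046 to 0.041 likewise) and *Slc6a6* (0.011 with total counts, -0.13 to 0.054 without a liver). The causes were not tested. Every member had at least 1065 counts in each liver, so depth limits genes near the 60-count minimum first.

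The labels number the livers 1 to 5 in both groups, but nothing says that a number marks a shared cage or day. Same-numbered livers deviated from their group means with correlations of 0.37, -0.11, -0.098, 0.078 and 0.094, and most livers did not correlate best with their own number. With the number as a replicate block, 17 genes were called lower and 72 higher, 0 of them members, and 1 related gene was called higher, *Selenbp2* (log2 fold change 2.11, adjusted *P* = 0.0396). The adjusted *P* under the block was 0.0598 for *Suox*, 0.115 for *Cdo1*, 0.119 for *Cbs*, 0.0810 for *Mat2a*, 0.0737 for *Tpmt* and 0.0630 for *Hal*.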

Other observations

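Further genes of sulfur amino acid metabolism were set apart by DESeq2 and not by edgeR, and are named here after their values were seen. *Adk*, adenosine kinase, removes the adenosine that Ahcy releases. It was at 888 ± 69.4 CPM (S.D., n = 5) in control and 726 ± 43.6 CPM in MI-883 livers, with no overlap between groups (log2 fold change -0.29 ± 0.0798, S.E., adjusted *P* = 0.115 by edgeR and 0.00511 by DESeq2). *Slc6a13*, a transporter gene for GABA and taurine, was at 210 ± 17.0 and 243 ± 8.02 CPM (0.21 ± 0.0698, adjusted *P* = 0.178 by edgeR and 0.0467 by DESeq2).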
